A study of Mus musculus with 6 samples.

Results

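Most TCR-β clonotypes of CD4+ T cells from the UUO kidney rested on a single mRNA molecule, and these were divided by whether the same rearrangement was seen in the spleen of the same mouse. A clonotype was a coding CDR3 nucleotide sequence with its V and J gene, and it was a member when its unique molecular identifiers (UMIs, the random tags that mark single mRNA molecules) summed to 1 in a kidney library. Of 1716 kidney clonotypes, 1305 were members, and the whole series held 330061 clonotypes over 6 libraries. The side called found held the 549 members with at least 1 UMI in the spleen library of their own mouse, and the side called not found held the other 756. Members and sides were thus chosen by UMI counts in the kidney and in the own spleen, and these counts are given as a description. All mice were C57BL/6 wildtype females, 10 to 14 weeks old, and carried both injuries. The right ureter was clipped on day 0 and released on day 6 (RUUO, a reversible obstruction), the left ureter was ligated on day 17 (UUO), and organs were taken on day 22. No uninjured group enters here. CD4+ T cells were purified with magnetic beads, in the kidney after an additional negative isolation step, and sorted by flow cytometry before RNA extraction.

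A TCR-β chain is made by joining a V, a D and a J segment of the Trb locus on chromosome 6. At each joint nucleotides are trimmed and others are added without a template, so that the CDR3, the loop across the joint that contacts peptide, is nearly unique to each rearrangement. Rearrangements with few added nucleotides are made more often, and the same nucleotide sequence can arise independently in several cells or several animals. Such sequences are called public.

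The kidney libraries of mice 1, 2 and 3 held 356, 588 and 361 members, of which 154, 258 and 137 were found in the own spleen. The found share was 43.3% in mouse 1 (exact 95% interval 38.0% to 48.6%), 43.9% in mouse 2 (39.8% to 48.0%) and 38.0% in mouse 3 (32.9% to 43.2%), where the intervals cover counting error only. The spleen libraries held 160179, 224811 and 97735 UMIs, and the mouse with the shallowest spleen had the lowest share. With the spleens thinned at random to the depth of the smallest, the found shares of mice 1, 2 and 3 were 38.2%, 32.7% and 38.0%. A clonotype not found in the full own spleen could still make up 0.00187%, 0.00133% and 0.00307% of the spleen molecules of mice 1, 2 and 3 (a limit of 3 counts). Just inside the limit of the found side were 36, 66 and 49 members with 1 spleen UMI, and the median found member had 4, 4 and 2 spleen UMIs. Just outside the limit of membership were the kidney clonotypes with 2 UMIs, of which 34 of 74, 60 of 97 and 39 of 76 were found in the own spleen. One kidney UMI does not tell how many cells carried the receptor, since fewer cells and less mRNA per cell cannot be told apart in bulk RNA.

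The following CDR3 sequences show the kinds of members, with the nucleotides between the end of the V match and the start of the J match in capitals. The first 4 were found in the spleens of all 3 mice, the next 4 were missing from the own spleen but present in the spleens of both other mice, and the last 4 had the most UMIs in the own spleens of mice 1 and 2.
Trbv13-2 with Trbj2-7, mouse 2: tgtgccagcggtgatgaacagtacttc
Trbv13-2 with Trbj2-5, mouse 1: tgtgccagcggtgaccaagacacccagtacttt
Trbv3 with Trbj2-7, mouse 1: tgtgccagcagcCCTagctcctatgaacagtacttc
Trbv20 with Trbj2-7, mouse 1: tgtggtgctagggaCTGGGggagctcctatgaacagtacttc
Trbv13-1 with Trbj1-3, mouse 1: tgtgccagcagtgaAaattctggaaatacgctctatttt
Trbv13-3 with Trbj2-4, mouse 1: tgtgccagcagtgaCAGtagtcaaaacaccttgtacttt
Trbv13-3 with Trbj2-5, mouse 3: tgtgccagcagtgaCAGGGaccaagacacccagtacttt
Trbv1 with Trbj2-7, mouse 3: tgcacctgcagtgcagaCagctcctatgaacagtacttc
Trbv1 with Trbj2-2, mouse 2: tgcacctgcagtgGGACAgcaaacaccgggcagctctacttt
Trbv13-1 with Trbj2-7, mouse 2: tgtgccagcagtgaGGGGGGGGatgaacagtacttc
Trbv13-2 with Trbj2-7, mouse 1: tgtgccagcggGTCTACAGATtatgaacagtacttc
Trbv5 with Trbj2-1, mouse 1: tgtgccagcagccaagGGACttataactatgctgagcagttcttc

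The Trbv13-2 clonotypes of mouse 2 with Trbj2-7 and of mouse 1 with Trbj2-5 had 0 nucleotides between the V and J matches, and so show no capitals. The former had 18, 18 and 5 UMIs in spleens 1, 2 and 3, and the latter had 13, 12 and 7. The Trbv3 clonotype of mouse 1, with 3 nucleotides between the matches, had 17, 12 and 10 spleen UMIs. The Trbv20 clonotype, with 5, had 8, 12 and 11. All 4 had at least 5 UMIs in every spleen, although each kidney molecule was single. They were chosen from 30 members in all 3 spleens for the most UMIs in the other spleens. Their high counts there follow from this choice.

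Of those missing from the own spleen, the Trbv13-1 clonotype of mouse 1 had 13 and 3 UMIs in spleens 2 and 3, and its Trbv13-3 clonotype had 4 and 8. In mouse 3 the Trbv13-3 clonotype had 2 UMIs in spleen 1 and 7 in spleen 2, and the Trbv1 clonotype had 1 and 2. Between 1 and 5 nucleotides lay between the V and J matches of these 4 clonotypes. They were chosen from 7 such members for the most UMIs in the other spleens.

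Among the members most abundant in the own spleen, the Trbv1 clonotype of mouse 2 had 146 UMIs in spleen 2 and its Trbv13-1 clonotype had 77. In mouse 1 the Trbv13-2 clonotype with Trbj2-7 had 76 UMIs in spleen 1 and the Trbv5 clonotype had 73. These 2 differed in their kidney reads, with 26 for the former, the fewest of any member of mouse 1, and 937 for the latter. In mouse 3 the most abundant were a Trbv13-2 clonotype with Trbj2-7 and a Trbv4 clonotype with Trbj2-4, with 66 and 17 UMIs in the own spleen. Of these 6 members, the Trbv1 clonotype was in both other spleens, with 6 and 5 UMIs, the Trbv5 clonotype was in 1 of them, with 1 UMI, and the others were in neither.

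Members found in the own spleen were also more often present in the spleens of the other mice, which the division did not use. In mouse 1, 25 of 154 found members (16.2%, exact 95% interval 10.8% to 23.0%) were in at least 1 other spleen, against 16 of 202 members not found (7.92%, 4.60% to 12.5%). In mouse 2 these were 45 of 258 (17.4%, 13.02% to 22.6%) against 15 of 330 (4.55%, 2.57% to 7.39%). In mouse 3 they were 22 of 137 (16.1%, 10.3% to 23.3%) against 18 of 224 (8.04%, 4.83% to 12.4%). The means were 16.6% ± 0.753 (SD, n = 3) and 6.83% ± 1.98 (SD, n = 3), a difference of 9.74 percentage points in favour of the found side. Every found side lay above every not-found side, and the difference was larger than the spread between mice. The exact two-sided sign-flip permutation test gave p = 0.25, below which 3 pairs cannot go, and an adjusted p of 0.719 over the 23 values tested this way, so that no value in this family could pass a threshold of 0.05. With clonotypes matched by CDR3 nucleotides alone the difference was 15.8 percentage points, and with CDR3 amino acids, V and J it was 21.6. It was slightly smaller with at least 2 spleen UMIs (9.55), with thinned spleens (9.38) and without near neighbours in the kidney (9.60).

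The same order was seen in each of the 6 pairs of a kidney with the spleen of another mouse. In spleen 2, the deepest, 14.9% of the found members of mouse 1 and 5.94% of those not found were present, and for mouse 3 these shares were 10.9% and 5.80%. In spleen 3, the shallowest, they were 8.44% and 3.47% for mouse 1 and 6.20% and 1.52% for mouse 2. In spleen 1 they were 15.5% and 3.33% for mouse 2 and 10.9% and 3.57% for mouse 3. Presence in both other spleens was recorded for 11, 11 and 8 found members and for 3, 1 and 3 members not found. Read the other way, 61.0%, 75.0% and 55.0% of the members present in another spleen were found in the own spleen, against 41.0%, 40.3% and 35.8% of the members present in no other spleen. Between kidneys, 1 clonotype was a member in more than 1 mouse.

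**Figure D1:**
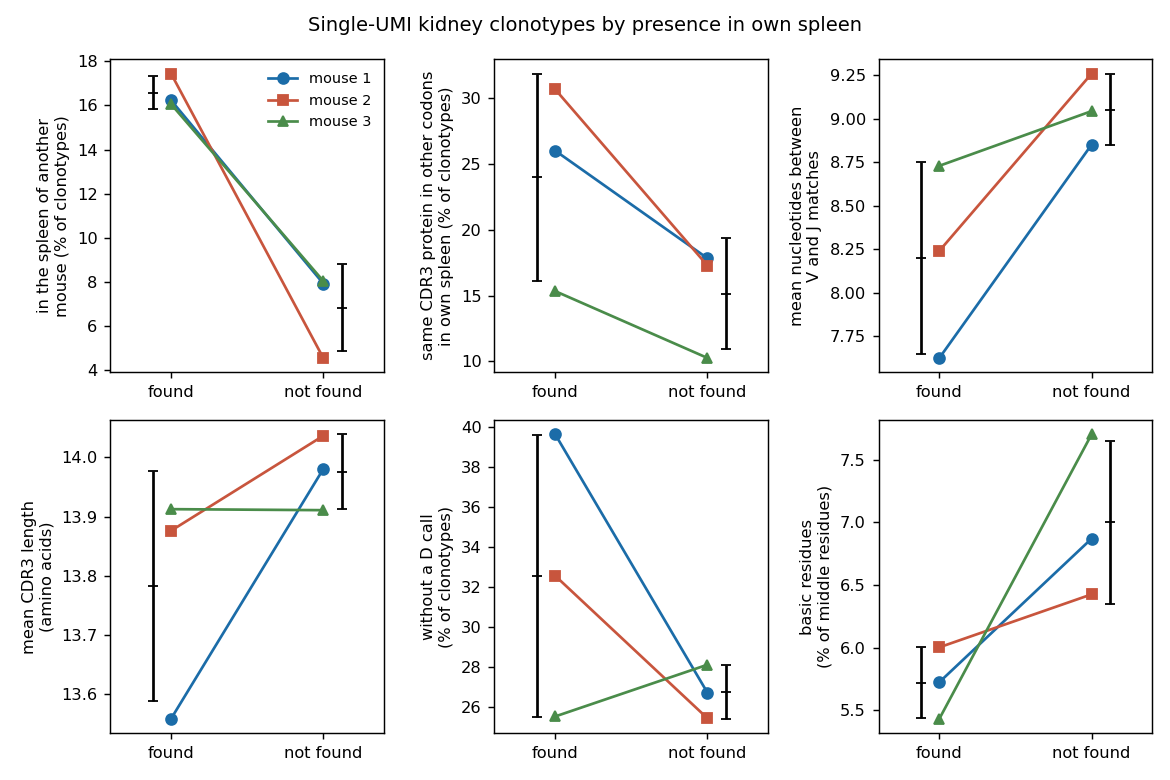
Values of single-UMI kidney clonotypes found and not found in the own spleen, with each line a mouse (circle, square and triangle for mice 1, 2 and 3), and with the mean and SD of 3 mice in black beside the points. The y axes do not start at 0. The share in other spleens lies between 16.1% and 17.4% on the found side and between 4.55% and 8.04% on the other, while mean CDR3 length does not separate the sides in mouse 3.

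Related sequences in the own spleen were counted as well, leaving out the clonotype itself. They come from the same spleen libraries that defined the sides, so these values and their p are not independent of the division. The same CDR3 protein with the same V and J gene, but written in other codons, was present in the own spleen for 26.0%, 30.6% and 15.3% of the found members of mice 1, 2 and 3 and for 17.8%, 17.3% and 10.3% of those not found. This share was higher on the found side in 3 of 3 mice, by 8.85 percentage points on average, and the sides overlapped between mice (exact sign-flip permutation test, p = 0.25; adjusted p = 0.719). A spleen clonotype with 1 nucleotide mismatch and the same V and J gene existed for 40.3%, 43.4% and 19.7% of found members and for 25.2%, 23.3% and 21.4% of the others. This difference was seen in mice 1 and 2 but not in mouse 3 (exact sign-flip permutation test, p = 0.5).

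The joint between V and J was shorter in members found in the spleen. The mean number of nucleotides between the V and J matches, which holds the D segment and untemplated nucleotides, was 7.62, 8.24 and 8.73 in the found members of mice 1, 2 and 3 and 8.85, 9.26 and 9.04 in those not found. The difference (found minus not found) was -0.854 nucleotides, with the found side lower in 3 of 3 mice and every found side below every not-found side (exact sign-flip permutation test, p = 0.25; adjusted p = 0.719). It was small beside the spread between clonotypes, whose SD within a side was 4.09 to 4.26 nucleotides. Joints of 0 to 3 nucleotides made up 16.9%, 12.4% and 12.4% of the found members and 9.90%, 7.58% and 8.48% of the others, and joints of 15 or more nucleotides made up 5.84%, 5.04% and 7.30% against 8.42%, 10.9% and 10.3%. Both ends of the distribution therefore differed in the same direction in all 3 mice.

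**Figure D2:**
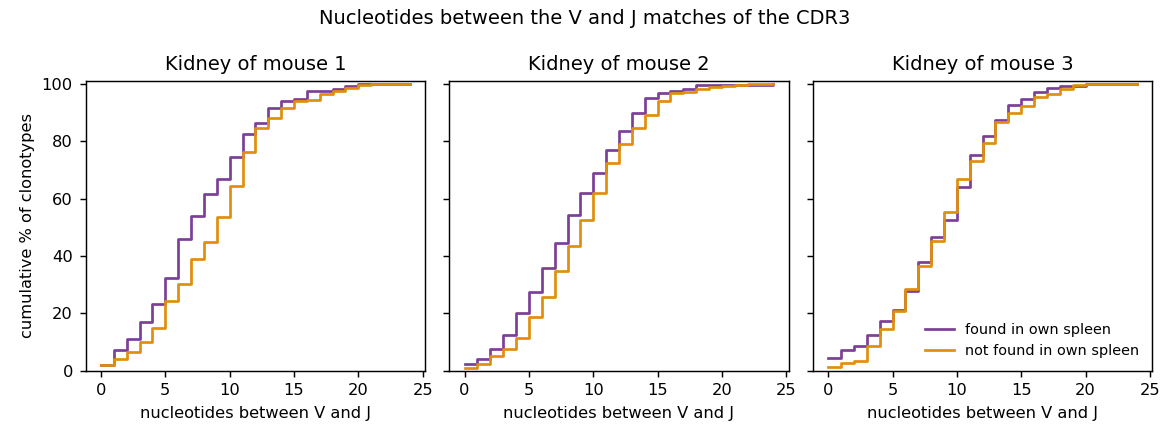
Cumulative share of single-UMI kidney clonotypes (y axis, % of the side) by the number of nucleotides between the V and J matches of the CDR3 (x axis), for each kidney. From 1 to 5 nucleotides the line of the found side runs above that of the not-found side in each panel. In mouse 3 the lines cross repeatedly between 5 and 11 nucleotides, with medians of 9 nucleotides on both sides.

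Members present in another spleen had the shortest joints. In mice 1, 2 and 3 their mean was 4.76, 5.64 and 5.36 nucleotides on the found side and 5.31, 6.47 and 6.61 on the not-found side. Members in no other spleen had means of 8.18, 8.79 and 9.37 on the found side and 9.16, 9.39 and 9.26 on the other. Without the clonotypes of other spleens, a comparison added after the values had been seen, the mean difference was -0.489 instead of -0.854 nucleotides, and in mouse 3 the found side was higher by 0.117. The joint was shorter on the found side in each mouse within clonotypes of the Trbj1 cluster, with differences of -0.968, -0.809 and -0.0820 nucleotides, and within those of the Trbj2 cluster, with -1.55, -1.26 and -0.306. Members of the Trbv13 family, made up of Trbv13-1, Trbv13-2 and Trbv13-3, showed differences of -1.05, -1.31 and -1.15 nucleotides. Among members with a D call the differences were smaller than over all members, at -0.577, -0.681 and -0.267 nucleotides. Among members without a D call they were -0.175, -0.333 and -1.08.

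Nucleotides matched neither to V nor to D nor to J averaged 2.94, 2.81 and 2.55 in found members and 2.93, 3.06 and 3.04 in the others. The found side was lower in mice 2 and 3 and level with the other in mouse 1 (exact sign-flip permutation test, p = 0.5). Joints with 0 such nucleotides made up 14.3%, 18.6% and 19.7% of the found members and 14.4%, 12.4% and 12.5% of those not found. V segments were trimmed by 2.22 ± 0.0597 (SD, n = 3) nucleotides on the found side and 2.35 ± 0.10 (SD, n = 3) on the other, and J segments by 2.66 ± 0.223 and 2.71 ± 0.138, with differences in both directions among the mice.

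Members were also described by their level in the own spleen, which partly chose the sides and is given with no test. Over the 3 mice, 6.48% of the 756 members with 0 spleen UMIs were in another spleen, 13.9% of the 151 members with 1 spleen UMI, 16.2% of the 185 with 2 to 4, 18.1% of the 116 with 5 to 9 and 20.6% of the 97 with 10 or more. The mean joint was 9.09, 8.73, 8.09, 8.39 and 7.31 nucleotides in these classes. Within single mice the order was not even, and the highest class of mouse 3 held 6 members.

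**Figure D3:**
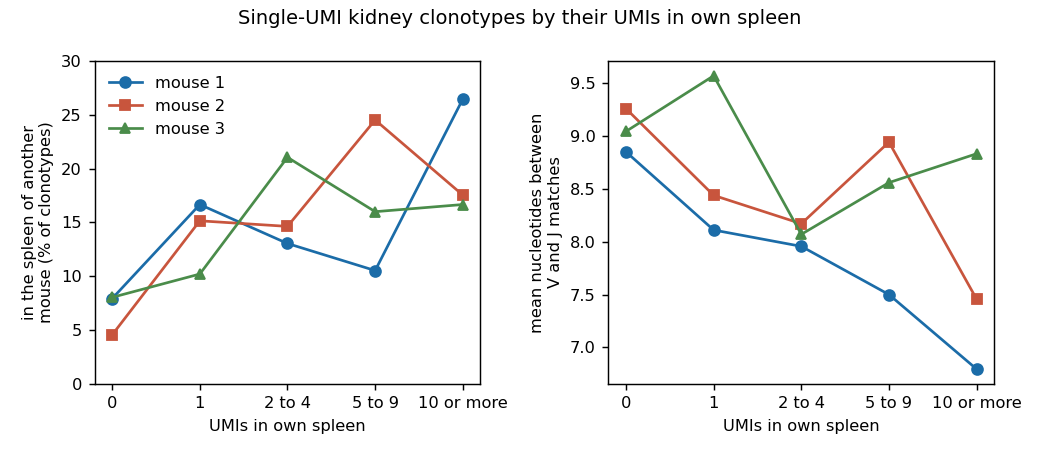
Share of single-UMI kidney clonotypes present in the spleen of another mouse (left, %) and mean number of nucleotides between V and J matches (right, axis not from 0) by the number of UMIs in the own spleen, with 1 line per mouse. Members with 0 own spleen UMIs have the lowest share in each mouse, between 4.55% and 8.04%.

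CDR3 length did not separate the sides in all mice. The mean was 13.56, 13.88 and 13.91 amino acids in the found members of mice 1, 2 and 3 and 13.98, 14.04 and 13.91 in the others, a difference of -0.193 amino acids with the found side shorter in mice 1 and 2 and equal within 0.002 in mouse 3 (exact sign-flip permutation test, p = 0.5; adjusted p = 0.719). The median was 14 on both sides in every mouse. CDR3s of up to 12 amino acids numbered 33, 42 and 20 on the found side (21.4%, 16.3% and 14.6%) and 31, 34 and 33 on the other (15.3%, 10.3% and 14.7%). CDR3s of 17 amino acids made up 0.649%, 1.16% and 1.46% of the found members and 1.98%, 4.55% and 2.23% of the others, lower on the found side in 3 of 3 mice, with a log2 ratio of -1.50. In edgeR's quasi-likelihood test with the mouse as a block and Benjamini-Hochberg adjustment, 0 of 7 length classes passed an adjusted p of 0.05 (0%), with an adjusted p of 0.152 for 17 amino acids. At an unadjusted p under 0.05 there was 1 class, and DESeq2 called 0, with 2 at an unadjusted p under 0.05. The class of 17 amino acids held 30 members in all.

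**Figure D4:**
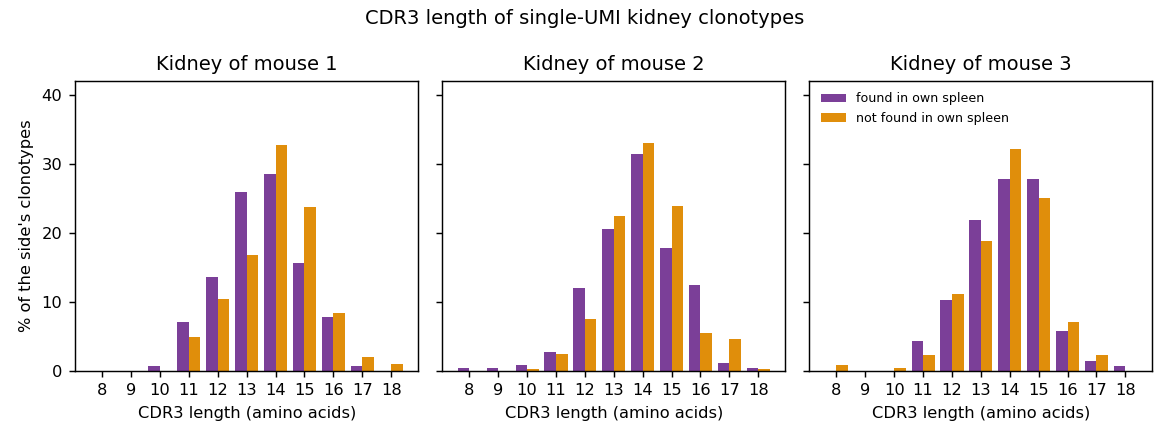
CDR3 length (x axis, amino acids) of single-UMI kidney clonotypes as a share of the clonotypes found (purple) or not found (orange) in the own spleen (y axis, %), for each kidney. Both sides peak at 13 to 15 amino acids, and the bars at 17 amino acids are lower on the found side in each panel.

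The shortest found member (Trbv3 with Trbj1-4, mouse 2) had 8 amino acids and 1 UMI in the own spleen. The shortest one not found (Trbv29 with Trbj2-1, mouse 3) also had 8 and did not begin with the cysteine that normally opens the CDR3. The longest had 18 amino acids on both sides. They were a Trbv1 clonotype with 3 UMIs in spleen 2 and a Trbv23 clonotype that was in no spleen, both from the kidney of mouse 2.

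A D segment was not called for 39.6%, 32.6% and 25.5% of the found members and for 26.7%, 25.5% and 28.1% of those not found. The found side was higher in mice 1 and 2 and lower in mouse 3 (exact sign-flip permutation test, p = 0.5). Members without a D call had mean joints of 3.54 to 4.62 nucleotides, against 9.96 to 10.9 in those with one. Trbd1, the D segment upstream of both J clusters, made up 59.2% ± 3.05 (SD, n = 3) of D calls on the found side and 60.1% ± 1.35 (SD, n = 3) on the other. Among Trbj2 clonotypes, which can use either D segment, its share was 44.3% ± 5.09 (SD, n = 3) and 43.6% ± 4.32 (SD, n = 3). Both differences were smaller than the spread between mice. Between 10.5% and 15.2% of the members of a side matched both D segments, and the first was used.

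No V gene passed the test after adjustment. In edgeR's quasi-likelihood test with the mouse as a block and Benjamini-Hochberg adjustment, 0 of 20 V genes passed an adjusted p of 0.05 (0%), 1 had an unadjusted p under 0.05, and DESeq2 called 0 with 1 at an unadjusted p under 0.05. Of the 22 V genes among the members, Trbv21 with 1 clonotype and Trbv30 with 5 were too rare to test.

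Trbv20 (chromosome 6, 41188273 to 41188977, GRCm38) made up 5.84%, 5.43% and 8.03% of found members and 3.96%, 3.33% and 3.12% of those not found. Its log2 ratio was 0.85 (adjusted p = 0.510 from edgeR with Benjamini-Hochberg adjustment), and its sides did not overlap. Trbv31 (chromosome 6, 41557693 to 41558371), the V gene that lies downstream of the J clusters in inverted orientation, went the other way, with 3.25%, 4.65% and 3.65% against 5.45%, 6.36% and 8.48%. Its log2 ratio was -0.73 (adjusted p = 0.510 from edgeR), again without overlap of the sides. This was not particular to these genes, since the sides of Trbv13-3 and Trbv15 did not overlap either, both lower on the found side. Trbv13-3 made up 6.49%, 6.20% and 6.57% of found members and 9.90%, 8.18% and 9.38% of the others. Its log2 ratio was -0.49 (adjusted p = 0.521 from edgeR). Where a found member needed 2 or more own-spleen UMIs, the log2 ratio of Trbv31 was -1.60 (adjusted p = 0.0300 from edgeR), the only V gene call under any alternative.

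The other V genes with large ratios were less used. Trbv15 made up 1.95%, 2.71% and 2.92% of found members and 4.95%, 3.03% and 4.46% of the others (log2 ratio -0.62). Trbv14, with 15 members, and Trbv23, with 16, had log2 ratios of -0.996 and 1.09, and the adjusted p was 0.521 for all 3 genes in edgeR. Trbv14 was lower on the found side in 3 of 3 mice, and Trbv23 was higher in 2.

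Trbv1 did not differ in the same direction in all mice. It made up 31 of 154 found members (20.1%) against 16 of 202 others (7.92%) in mouse 1, but 10.5% against 8.79% in mouse 2 and 10.2% against 12.5% in mouse 3. This V gene was singled out after its values were seen. Its log2 ratio was 0.44 (adjusted p = 0.521 from edgeR). The joints of its found members averaged 6.13, 7.74 and 8.36 nucleotides in mice 1, 2 and 3, and those of the others 8.94, 8.93 and 8.57.

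**Figure D5:**
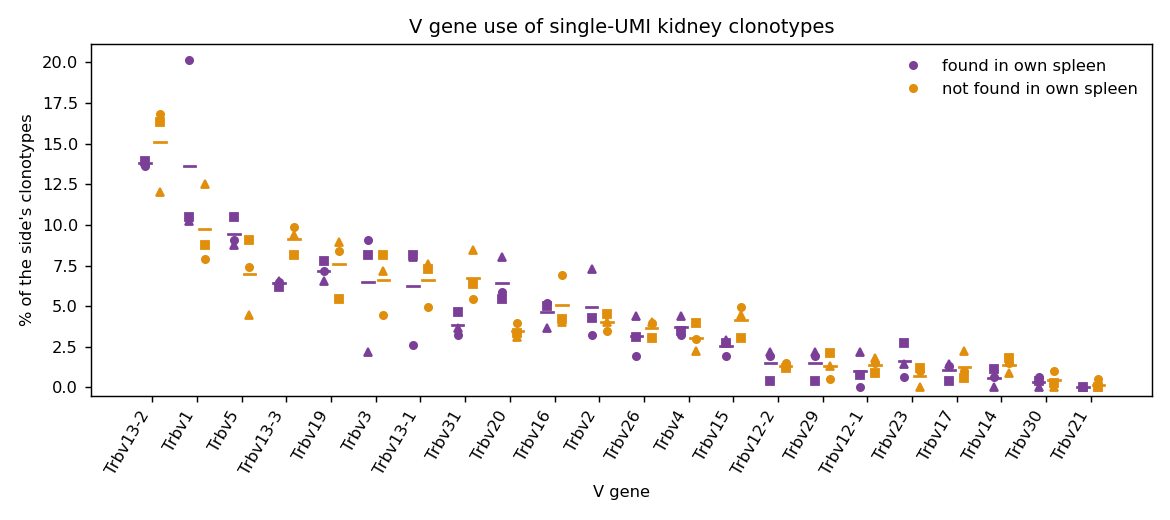
V gene use of single-UMI kidney clonotypes (y axis, % of the clonotypes of a side) for members found (purple) and not found (orange) in the own spleen. Points are mice 1 (circle), 2 (square) and 3 (triangle), bars are means of 3 mice, and genes are ordered by mean use. The points of Trbv20 lie apart in one direction and those of Trbv31, Trbv13-3 and Trbv15 in the other. The circle of Trbv1 at 20.1% stands above its square and triangle.

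J gene use did not differ detectably. In edgeR with the mouse as a block, 0 of 12 J genes passed an adjusted p of 0.05 (0%), 0 had an unadjusted p under 0.05, and both counts were 0 with DESeq2. Trbj1-5 made up 3.25%, 1.16% and 2.92% of found members and 5.45%, 2.73% and 3.12% of the others (log2 ratio -0.69, adjusted p = 0.912 from edgeR). Trbj1-6 (log2 ratio 0.53) and Trbj2-3 (0.31) changed direction between mice. For Trbj2-3 the shares were 9.74%, 16.3% and 7.30% on the found side and 6.44%, 9.09% and 12.9% on the other.

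Residues were counted in the middle of the CDR3, without the first 4 and last 4 positions, which come mostly from V and J. In edgeR with the mouse as a block, 0 of 19 amino acids passed an adjusted p of 0.05 (0%) and 0 had an unadjusted p under 0.05, and both counts were 0 with DESeq2. By group, basic residues (lysine, arginine and histidine) made up 5.72%, 6.00% and 5.43% of the middle in found members and 6.87%, 6.43% and 7.70% in the others. Their share was lower in 3 of 3 mice, by -1.28 percentage points on average and without overlap of the sides (exact sign-flip permutation test, p = 0.25, adjusted p = 0.719). Among the 23 paired values tested, the sides also lay apart for the share in other spleens and the V-to-J joint, and for no other. Arginine made up 4.67%, 4.82% and 4.81% against 5.46%, 5.27% and 6.27% (log2 ratio -0.23) and lysine 0.467%, 0.528% and 0.370% against 0.911%, 0.753% and 0.529% (log2 ratio -0.64), with an adjusted p of 0.790 for both in edgeR. Histidine did not share this direction in all mice. It was higher on the found side in mice 1 and 2 (0.584% against 0.497% and 0.660% against 0.402%) and lower in mouse 3 (0.247% against 0.906%).

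Glycine, which both D segments encode in most reading frames, was lower on the found side in 3 of 3 mice, with a mean difference of -1.02 percentage points, at 20.7%, 22.6% and 22.0% against 21.8%, 23.6% and 23.0%. The amides asparagine and glutamine were higher in 3 of 3 mice, by 1.55 percentage points (exact sign-flip permutation test, p = 0.25 for both groups). Their sides overlapped between mice. With CDR3 amino acids, V and J as the key the glycine difference was -0.055 percentage points, with both signs among the mice, and without mouse 3 the amide difference was 0.773. Acidic, aromatic and aliphatic residues, serine with threonine, and proline differed in both directions among the mice. The remaining amino acids with large ratios were glutamate (log2 ratio 0.31), tyrosine (0.23) and phenylalanine (-0.16), with adjusted p of 0.790, 0.790 and 0.938 in edgeR. Cysteine occurred once and was not tested.

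Read counts per molecule overlapped between the sides. The median member had 865.5, 518 and 663 reads on the found side and 903, 496.5 and 670.5 on the other, and the median log2 read count differed by less than the spread between mice (exact sign-flip permutation test, p = 0.75). Members with under 100 reads numbered 6 of 154, 17 of 258 and 6 of 137 on the found side of mice 1, 2 and 3. On the other side they numbered 7 of 202, 21 of 330 and 17 of 224. Members 1 nucleotide from a larger clonotype of the same kidney made up 0.649%, 0.775% and 0% of the found side and 0%, 0.303% and 0% of the other. The lowest base quality in the CDR3 averaged 45.0 on the found side and 44.97 on the other.

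The larger kidney clonotypes, with 2 or more UMIs, numbered 127, 172 and 112 and were divided in the same way for comparison. The found sides held 79, 128 and 68 of them and the not-found sides 48, 44 and 44, so the following shares rest on few clonotypes. Of those found in the own spleen, 5.06%, 5.47% and 14.7% were in another spleen, and of those not found 2.08%, 9.09% and 11.4%. The found side was higher in mice 1 and 3 and lower in mouse 2, a mean difference of 0.900 percentage points against 9.74 in single-UMI clonotypes. The difference between the size classes was 8.84 percentage points and had the same sign in 3 of 3 mice (p = 0.25 by exact sign-flip permutation, again the lowest possible). It ranged from 5.01 to 10.9 with 1 mouse left out, and it was 0.428 percentage points (p = 1 by exact sign-flip permutation) when clonotypes were matched by CDR3 amino acids, V and J. For the joint the larger clonotypes differed by -0.328, -0.499 and 0.440 nucleotides (found minus not found), and the size classes by -0.725 on average, again with the same sign in 3 of 3 mice (exact sign-flip permutation test, p = 0.25). For CDR3 length the size classes differed by -0.0505 amino acids, with both signs among the mice.

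Set beside the spleens, members not found had joints near those of spleen clonotypes with 1 UMI, whose means were 9.06, 9.09 and 9.01 nucleotides in mice 1, 2 and 3. Spleen clonotypes with 2 or more UMIs had 8.50, 8.59 and 8.42. The found members had a shorter mean joint than the latter in mice 1 and 2 and a longer one in mouse 3. CDR3 length in the spleens was 13.9 amino acids with 1 UMI and 13.8 with 2 or more UMIs in each mouse. These sets share the spleen libraries that defined the sides and were not tested against them.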

How the data were processed

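TCR-β mRNA was amplified by 5′ RACE with UMIs on the template-switching oligonucleotide. How reads of the technical PCR replicates were joined is not given in the sources used here. Per the study's methods the authors assembled clones with MiXCR; they deposited UMI counts and read counts per clone, not normalized, and the lowest base quality score in the CDR3. No filter is stated. Coding clones were summed by CDR3 nucleotides, first V and first J gene. Joints were read from the deposited V, D and J boundaries, with palindromic nucleotides counted as matched. Depth was 693 to 1248 UMIs in kidneys and 97735 to 224811 in spleens, and intervals cover counting error only. All 36 gene names matched symbols of the GRCm38.p6 annotation, the build named in the submitters' processing notes.

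The labels number the libraries within each organ, and a kidney and a spleen of the same number were taken to come from the same mouse. Both sides come from the same kidney library, so values were paired by mouse. Single values were compared by exact two-sided sign-flip permutation over 3 mice. Numbers of clonotypes or residues per feature (at least 10 over 6 columns) were fitted by edgeR's quasi-likelihood test with library sizes, a common dispersion and the mouse as a block, with Benjamini-Hochberg adjustment. Separate mice are the replicates. V and J genes, lengths and residues were named when called, with the 5 V genes, 3 J genes and 5 residues of largest ratio; clonotypes by spleen UMIs, sharing and length. The members and lists were chosen with earlier results of these data known, and the own-spleen relatives were added after first values. Alternatives changed the spleen minimum, spleen depth, clonotype key, near neighbours, mice, block, tool, normalization, filter and residues counted. In DESeq2 the mean of the gene-wise dispersions served all features. The fits were run on simulated data drawn from pooled shares. These data had no variation between mice, so they cannot check the error rate of the fits over mice. Python 3.11.15, numpy 2.4.6, pandas 2.3.3, scipy 1.17.1, matplotlib 3.10.9, R 4.3.3, edgeR 4.0.16 and DESeq2 1.42.0 were used.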

Additional observations from a re-analysis of the deposited data

Results flagged for a closer look

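Non-coding clones were outside the comparison. Of the single-UMI kidney clones with a stop codon or frameshift, of which the 3 kidneys held 26, 43 and 31, the own spleen held 9 (mouse 1), 10 (mouse 2) and 6 (mouse 3), and the spleens of the other mice held 0. They drew attention only because no comparison above used them. Their shares in the own spleen were 34.6%, 23.3% and 19.4% in mice 1, 2 and 3. Each lay below the found share of the coding members, at 43.3%, 43.9% and 38.0%, and the difference was not tested.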

How the results depend on the processing

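Over the alternatives that kept all mice, 210 of 224 values and counts kept their direction, or their count, and their side of the threshold, but 57 of these values changed in size by over 1.5 times. Part of this tally was fixed in advance. No paired value could change its side of the threshold, since its permutation p cannot go that low. Leaving out the block changed only the p of the paired values, so these repeated the main values. The share in other spleens, the V-to-J joint, basic residues, glycine and amides kept their direction, with glycine between -2.20 (at least 2 spleen UMIs) and -0.055 (CDR3 amino acids as the key) percentage points. Differences became 0 by construction for other codons under the amino acid key and for near neighbours once these were left out, and 0 for CDR3 length by medians. With at least 2 spleen UMIs, serine with threonine went to -0.136 percentage points and log2 reads to 0.019, and 1 V gene was called (Trbv31). With CDR3 amino acids as the key, Trbd1 among Trbj2 clonotypes went to -3.36 percentage points and log2 reads to 0.035, and 1 length class was called (17 amino acids, adjusted p = 0.00976 from edgeR). Trbd1 among all D calls went to 1.87 percentage points with thinned spleens and to 0.10 with CDR3 nucleotides alone. Acidic residues went to -0.013 over all residues, and proline to 0.088 and phenylalanine to a log2 ratio of 0.0064 when fewer end positions or none were left out. Without clonotypes of other spleens, J trimming went to 0.054 nucleotides. The cause was not tested.

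Leaving out 1 mouse at a time left the paired differences and the log2 ratios named by the rule with their sign where they could be fitted, except the following and the base quality, whose difference ranged from 0 (without mouse 1) to 0.0446. Trbv14 and Trbv23 were too rare to fit without mouse 2. Trbd1 ranged from -2.72 to 0.343 percentage points among D calls and from -2.36 to 5.49 among Trbj2 clonotypes, aromatic residues from -0.134 to 1.21, aliphatic residues from -1.91 to 0.456 and proline from -0.551 to 0.182. Log2 reads ranged from -0.0387 to 0.0225, and the size classes' difference in CDR3 length from -0.133 to 0.0986 amino acids. Log2 ratios ranged from -0.18 to 0.99 for Trbj1-6, from -0.17 to 0.77 for Trbj2-3 and from -0.42 to 0.064 for phenylalanine. Of those that kept their sign, basic residues ranged from -1.71 to -0.785 and amides from 0.773 to 2.20 percentage points. The share in other spleens ranged from 8.17 to 10.6 percentage points, the joint from -1.12 to -0.668 nucleotides, CDR3 length from -0.291 to -0.0794 amino acids and members without a D call from 2.26 to 9.99 percentage points.

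Without the mouse as a replicate block, exact permutation of 3 against 3 gave p = 0.1, its smallest, for the share in other spleens (9.74 percentage points), the joint (-0.854 nucleotides) and basic residues (-1.28 percentage points). No other of the 23 paired values reached this p by the same permutation, and it was p = 0.2 for CDR3 length (-0.193 amino acids). edgeR without the block called 0 features. With 693 to 1248 UMIs per kidney, small differences in rare genes were not detectable, and absence from a spleen holds only to its depth.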
